A study of Mus musculus with 4 samples.

Results

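The genes described here are 10 members of the MHC class I pathway: the light chain gene B2m, the heavy chain genes H2-K1, H2-D1, H2-Q7, H2-T22 and H2-T23, the peptide transport and loading genes Tap1, Tap2 and Tapbp, and the regulator Nlrc5. They were taken by name from 4 single-cell matrices of colon intraepithelial T cells that together list 15301 genes. All 10 were among the 12698 genes listed in every library, and all 10 had enough counts for each comparison. They were followed by sort, by Tcf7 genotype, and in cells with and without transcripts of Gzma, the gene of the cytotoxic granule protease granzyme A.

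MHC class I molecules display peptides from inside a cell on its surface, where CD8 T cells and natural killer cell receptors read them. A polymorphic heavy chain pairs with the light chain β2-microglobulin in the endoplasmic reticulum, peptides enter through the TAP transporter, and tapasin holds the empty molecule at TAP until a peptide is bound. T cells carry class I molecules themselves, and NLRC5 is a nuclear regulator that acts with RFX, CREB/ATF and NF-Y proteins at a shared promoter module of these genes, which interferon also induces.

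Intraepithelial lymphocytes, the T cells that sit between the epithelial cells of the gut, came from mouse colon and were read by droplet 3′ RNA sequencing. The sorts were live CD3+ TCRβ+ CD8α+ cells and live CD3+ CD8α+ cells with the γδ receptor, which the cell type label gives as TCRgamma+. Each sort was given once as Tcf7WT and once as Tcf7KO, so there were 4 libraries of 1 per group. The strain label of all 4 was E8IcreTcf7fl/fl, a floxed Tcf7 with a Cre driven by a CD8α enhancer, and the genotype label alone told Tcf7WT from Tcf7KO. The protein of Tcf7, TCF-1, is a DNA-binding regulator found in naive and memory T cells, and a Cre under this enhancer acts only in cells that have turned on CD8α. The labels gave no age and no number of mice. With 1 library per group no difference could be tested, and neither mice nor libraries could be told apart from genotype or sort.

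The members differ in which known class I promoter motifs their RefSeq promoter windows carry. The RefSeq promoter table of GRCm38.p6 held 8 of the 10 members, each as 250 bases before to 50 after the start, Tap2 and Nlrc5 excepted. 4 elements follow because they carry the CREB/ATF-type core of the module (TGACG, first capitals) and the NF-Y-type box (ATTGG, last capitals) in the order and distance known for class I genes. Each is written 5′ to 3′ on the gene's own strand.
B2m, chr2:122147609-122147638, plus strand: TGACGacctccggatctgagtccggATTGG
H2-K1, chr17:34000359-34000388, minus strand: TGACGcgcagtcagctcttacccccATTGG
H2-D1, chr17:35262993-35263022, plus strand: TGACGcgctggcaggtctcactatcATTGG
H2-Q7, chr17:35439091-35439119, plus strand: TGACGtgtaacagttctcacccctATTGG
The spacer was 20 bases in B2m, H2-K1 and H2-D1 and 19 in H2-Q7. TGACG followed after 15 to 25 bases by ATTGG on the gene's strand was present in 68 of 32851 promoters, or 0.207%, and in either orientation in 0.381%. These letters in this order and spacing were not in the windows of H2-T22, H2-T23, Tap1 or Tapbp. The search letters were chosen after the sequences had been seen, and a match is a description, not a bound site.

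Upstream of that element, H2-K1 and H2-Q7 also shared an NF-κB-type site (GGGATTCCC, first capitals) and an interferon-type core (TTTCACTT, second capitals), which is why the longer stretch is shown for a classical and a nonclassical gene.
H2-K1, chr17:34000359-34000457, minus strand: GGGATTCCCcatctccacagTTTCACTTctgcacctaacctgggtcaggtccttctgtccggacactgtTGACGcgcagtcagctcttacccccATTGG
H2-Q7, chr17:35439023-35439119, plus strand: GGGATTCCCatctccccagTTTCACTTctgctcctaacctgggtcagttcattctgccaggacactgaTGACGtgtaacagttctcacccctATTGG
On both strands, GGGATTCCC was found in 0.301% of all promoters, and TTTCNNTT, the wider form of the interferon-type core, in 21.3%. H2-D1 had both upstream motifs as well, B2m had TTTCNNTT without GGGATTCCC, and H2-T22 and H2-T23 had TTTCNNTT and not GGGATTCCC. None of the 4 motifs, single ATTGG included, was missing from H2-K1, H2-D1 or H2-Q7, while Tapbp had only ATTGG. The element ended 48, 11, 71 and 35 bases before the start that RefSeq gives B2m, H2-K1, H2-D1 and H2-Q7. For H2-D1 that start lies inside the longer gene span of the GENCODE annotation given next, so the element is upstream of the RefSeq start only. The RefSeq starts of H2-T23 and Tapbp lie inside their GENCODE spans too. For each member a single RefSeq start was read, so motifs at other starts were not searched.

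In the GENCODE M21 annotation of GRCm38, 8 of the members lie on chromosome 17, which carries the MHC. They are Tapbp at chr17:33915899-33929292, H2-K1 at chr17:33996017-34000347, Tap1 at chr17:34187553-34197225, Tap2 at chr17:34203527-34216321, H2-D1 at chr17:35262730-35267499, H2-Q7 at chr17:35439155-35443773, H2-T23 at chr17:36029773-36032855 and H2-T22 at chr17:36037128-36042747. B2m lies at chr2:122147686-122153083 and Nlrc5 at chr8:94434356-94527272. Some counts are uncertain because of neighbours and copies. The last 500 bases of the longest protein-coding transcript of each member were searched for exact matches in other genes. There 25.9% of 91-base windows of H2-T22 were shared with H2-T10. For H2-T23 12.9% were shared with other genes, Rab33b, Hook2 and H2-T-ps among them. The other 8 members shared no exact window, and near matches were not searched. B2m, H2-T22, H2-T23, Tap1, Tap2, Tapbp and Nlrc5 each overlap another annotated gene, Psmb9 in the case of Tap1, and the sources used here do not state how strand was counted. The MHC haplotype of the mice is not given either, and its part in how heavy chain reads were assigned was not tested.

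Levels are CPM: a gene's unique molecular identifiers (UMIs) summed over cells, divided by all UMIs of those cells and scaled to a common total of 1000000. Values run in the order Tcf7WT then Tcf7KO of the TCRβ sort, then Tcf7WT and Tcf7KO of the TCRγδ sort, unless named. The libraries held 7603, 5785, 1888 and 1511 cells and 20289960, 18372180, 6195292 and 7184668 UMIs. Intervals in brackets are 95% intervals, exact for counts, and cover counting error only. Tcf7 stood at 148, 107, 45.7 and 14.6 CPM, and its 3′ reads may lie outside the deleted part, so it does not check the labels. Cd3e was 1403 to 1972 CPM and Cd8a 1347 to 1748 CPM, and Trdc, the constant gene of the δ chain, was 1946 and 1905 CPM in the TCRγδ libraries and 15.4 and 14.7 CPM in the TCRβ libraries. Trac, the constant gene of the α chain, was 482 and 395 CPM in the TCRγδ libraries. Library pairs shared 1 to 10 cell barcodes.

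Epithelial RNA differed between libraries, and between the sides of the Gzma split mainly in TCRγδ Tcf7KO. The summed epithelial markers, of which 15 or 16 of 16 were listed, took 0.0600%, 0.0583%, 0.128% and 0.296% of UMIs. Single markers did not all follow the sum. In TCRβ Tcf7WT and Tcf7KO, Krt8 was at 50.6 and 21.0 CPM and Car1 at 14.2 and 1.09 CPM. Muc2 went the other way there, at 13.6 and 94.1 CPM. The largest parts in TCRβ were Epcam, at 179.6 and 185.6 CPM, and Lgals3, at 165 and 187 CPM. Cells in which they took at least 1% of UMIs, called epithelial-rich here, numbered 11, 3, 18 and 18. Class I transcripts were sparse in them: the 10 members summed to 1292 CPM (1186 to 1404) in the 18 such cells of TCRγδ Tcf7KO and to 9341 CPM (9268 to 9414) in its other cells. Those 18 cells, at a median of 23409 UMIs each, held 5.98% of the library's UMIs, against 1.65% for the 18 in TCRγδ Tcf7WT. The main ratios of the TCRγδ libraries are therefore also given without epithelial-rich cells.

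**Figure D1:**
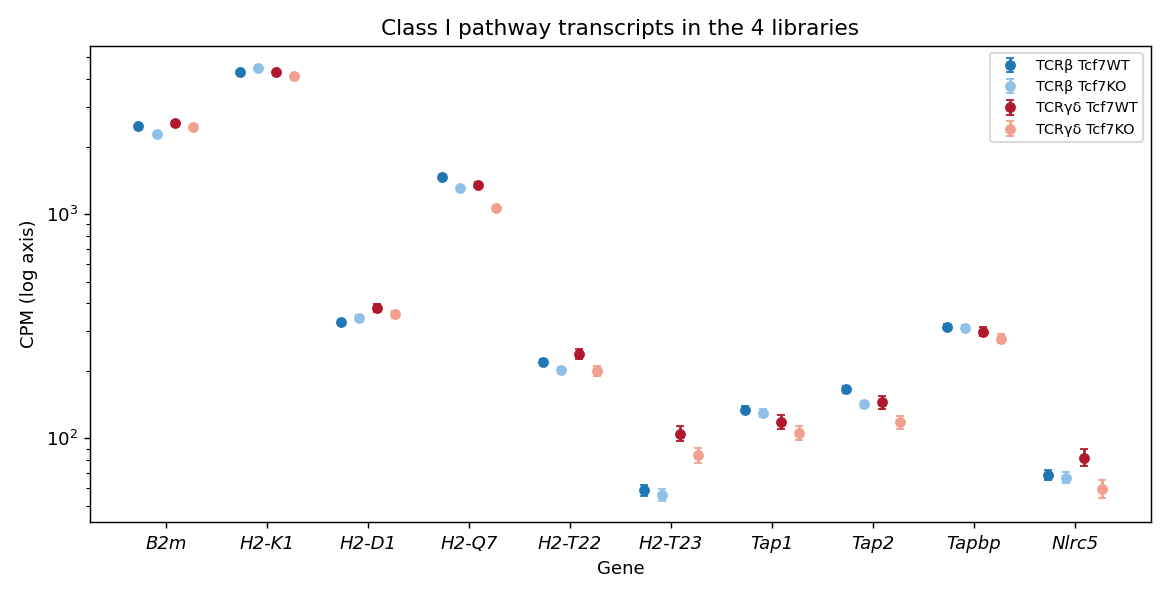
Level of each class I pathway gene in the 4 libraries, in CPM on a log axis, with exact 95% counting intervals as bars (often smaller than the point). H2-T23 differs most over the libraries, at 105 and 83.9 CPM in the TCRγδ libraries against 58.6 and 56.2 CPM in the TCRβ libraries. Tap2 (118 to 165 CPM), Nlrc5 (59.6 to 82.0 CPM) and H2-Q7 (1068 to 1458 CPM) differ less.

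Between TCRγδ and TCRβ cells, H2-T23 was the member that stood apart. H2-T23 encodes the heavy chain of Qa-1, a nonclassical class I molecule that binds the inhibitory receptor pair CD94 and NKG2A. Its level was 58.6 CPM (55.3 to 62.0) in TCRβ Tcf7WT, 56.2 CPM (52.8 to 59.7) in TCRβ Tcf7KO, 105 CPM (96.9 to 113) in TCRγδ Tcf7WT and 83.9 CPM (77.4 to 90.9) in TCRγδ Tcf7KO. Both TCRγδ libraries were above both TCRβ libraries, and no interval of one sort reached one of the other. The log2 ratio of TCRγδ over TCRβ was 0.84 (0.70 to 0.98), or 1.79-fold, in Tcf7WT and 0.58 (0.43 to 0.73), or 1.49-fold, in Tcf7KO.

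A gene was called when its CPM differed at least 1.5-fold. In Tcf7WT, H2-T23 was the 1 member of 10 called, and 13.7% of 10282 genes with at least 100 UMIs were called in either direction, so the count itself says nothing of the members as a group. In Tcf7KO 0 of 10 members were called, against 15.7% of 10230 genes, with H2-T23 just under the threshold. Without epithelial-rich cells its log2 ratio in Tcf7KO was 0.63 (0.48 to 0.77) and it passed. Over the 9 alternatives of processing its log2 ratio stayed between 0.81 and 0.91 in Tcf7WT and between 0.55 and 0.65 in Tcf7KO.

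The H2-T23 difference was also seen on each side of the Gzma split, which differs greatly between the sorts. In Gzma-positive cells H2-T23 stood at 67.8, 62.2, 109 and 85.9 CPM, and in Gzma-negative cells at 57.4, 52.8, 98.6 and 71.9 CPM. The TCRγδ over TCRβ log2 ratio in Tcf7WT was 0.68 (0.41 to 0.96) in Gzma-positive cells and 0.78 (0.57 to 0.99) in Gzma-negative cells, at least 1.5-fold in both, where 5.58% of 7312 and 13.6% of 9869 genes were called. In Tcf7KO it was 0.46 (0.28 to 0.65) and 0.44 (0.072 to 0.80), under 1.5-fold in both. Without epithelial-rich cells the latter was 0.63 (0.24 to 0.995) and passed 1.5-fold. In the Gzma-negative cells of Tcf7KO 2 of 10 members were called lower in TCRγδ, H2-Q7 at -0.60 (-0.70 to -0.50) and Tap2 at -0.60 (-0.91 to -0.30), where 12.2% of 9022 genes were. Both were at -0.31 without epithelial-rich cells. With every cell thinned to 1624 UMIs, an H2-T23 UMI was found in 9.07%, 8.93%, 16.2% and 12.6% of cells. Without thinning the shares were 13.9%, 16.1%, 27.3% and 31.6% at median depths of 2431, 2860, 3188 and 4366 UMIs. No cell type should lack class I transcripts, so no background share from free RNA is available for them.

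The other heavy chains differed little between the sorts. H2-K1, a classical heavy chain that presents peptides to CD8 T cells, stood at 4297, 4472, 4288 and 4133 CPM. H2-D1, the other classical heavy chain, stood at 329, 345, 381 and 357 CPM. H2-D1 was highest in the TCRγδ Tcf7WT library, with a sort log2 ratio of 0.21 (0.14 to 0.28) in Tcf7WT and 0.052 (-0.015 to 0.12) in Tcf7KO. The H2-K1 ratios were -0.0028 (-0.023 to 0.017), whose sign turned under 5 of 9 alternatives, and -0.11 (-0.13 to -0.095). H2-T22, a nonclassical heavy chain known as a ligand of some γδ receptors, stood at 219.7, 202, 237 and 200.01 CPM. Its sort ratio was 0.11 (0.025 to 0.20) in Tcf7WT and -0.015 (-0.10 to 0.073) in Tcf7KO, positive under 7 of 9 alternatives in the latter.

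B2m, whose light chain every heavy chain here needs, was slightly higher in TCRγδ cells. It stood at 2483, 2271, 2555 and 2456 CPM, with sort log2 ratios of 0.041 (0.015 to 0.067) in Tcf7WT and 0.11 (0.087 to 0.14) in Tcf7KO. The transport and loading genes were on the other side of 0. Tap1 and Tap2, the subunits of the peptide transporter, stood at 134, 129.7, 118 and 105 CPM and at 165, 142, 145 and 118 CPM. Their sort ratios were -0.19 (-0.31 to -0.068) and -0.19 (-0.30 to -0.081) in Tcf7WT and -0.30 (-0.42 to -0.18) and -0.27 (-0.38 to -0.16) in Tcf7KO. Tapbp, which encodes tapasin, stood at 315, 311, 298 and 279 CPM, with ratios of -0.077 (-0.15 to -0.0017) and -0.16 (-0.23 to -0.086). The median of the 10 members was 0.019 in Tcf7WT, where the median of all genes was -0.091, and -0.14 in Tcf7KO, where it was -0.074.

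H2-Q7, the Qa-2 heavy chain described with the genotypes, had sort ratios of -0.11 (-0.14 to -0.071) and -0.29 (-0.32 to -0.25). Nlrc5, the regulator, was on opposite sides of 0, at 0.26 (0.11 to 0.41) in Tcf7WT and -0.17 (-0.33 to -0.0062) in Tcf7KO. The Tcf7KO sort ratios moved with the epithelial-rich cells. Without them the median of the members was -0.065 and that of all genes -0.092, so the members went from below to above the median of all genes. B2m was then at 0.18 (0.16 to 0.21), H2-D1 at 0.12 (0.050 to 0.18), H2-T22 at 0.050 (-0.039 to 0.14) and H2-K1 at -0.045 (-0.064 to -0.026). H2-Q7 was at -0.21 (-0.25 to -0.17), Tap1 at -0.23 (-0.35 to -0.11), Tap2 at -0.20 (-0.32 to -0.089), Tapbp at -0.12 (-0.20 to -0.046) and Nlrc5 at -0.086 (-0.25 to 0.074). Of these 9 members, Nlrc5 and H2-T22 had intervals that held 0. In Tcf7WT the median was 0.031 without these cells, against -0.096 for all genes.

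**Figure D2:**
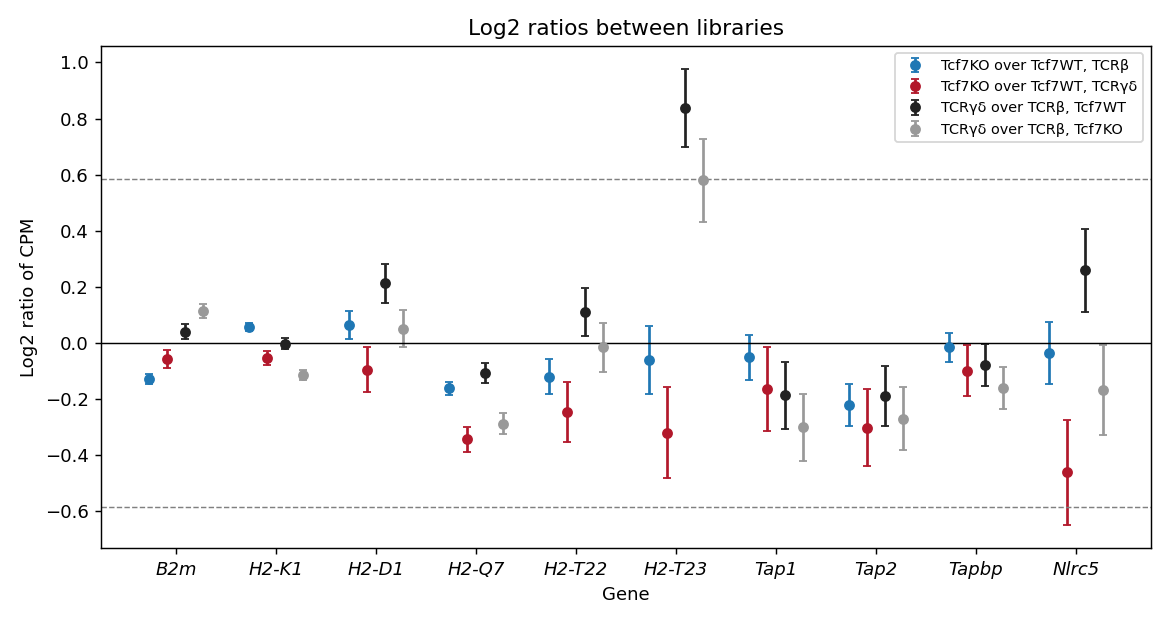
Log2 ratio of CPM between libraries for each gene, with exact 95% counting intervals; dashed lines mark 1.5-fold. The sort ratio of H2-T23 lies at 0.84 in Tcf7WT and 0.58 in Tcf7KO, and the Tcf7KO over Tcf7WT ratios of the TCRγδ sort (red) reach -0.46 at Nlrc5.

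Between Tcf7KO and Tcf7WT, the TCRγδ sort showed lower levels of Nlrc5, H2-Q7, H2-T23, Tap2 and H2-T22, while B2m and H2-K1 hardly differed. Nlrc5, the class I regulator, was at 82.0 CPM (75.0 to 89.4) in TCRγδ Tcf7WT and at 59.6 CPM (54.1 to 65.5) in TCRγδ Tcf7KO, and at 68.5 CPM (65.0 to 72.2) and 66.8 CPM (63.2 to 70.7) in TCRβ Tcf7WT and Tcf7KO. The TCRγδ Tcf7WT library was the highest of the 4 and the TCRγδ Tcf7KO library the lowest. The log2 ratio was -0.46 (-0.65 to -0.27) in TCRγδ, or 1.38-fold lower in Tcf7KO, and ranged from -0.50 to -0.38 over 9 alternatives. In TCRβ it was -0.036 (-0.15 to 0.076), and its sign turned under 4 of 9 alternatives.

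H2-Q7, which encodes a heavy chain of the nonclassical Qa-2 molecule, stood at 1458 CPM (1442 to 1475), 1303 CPM (1287 to 1320.1), 1355 CPM (1326 to 1385) and 1068 CPM (1044 to 1092). In both sorts the Tcf7KO library was the lower one, and no 2 of the 4 intervals overlapped. The log2 ratio of Tcf7KO over Tcf7WT was -0.16 (-0.19 to -0.14) in TCRβ and -0.34 (-0.39 to -0.30) in TCRγδ. With thinned cells the TCRγδ value was -0.21, the smallest of its alternatives. An H2-Q7 UMI was found in 86.4%, 83.8%, 84.0% and 78.9% of thinned cells and in 92.9%, 92.8%, 90.8% and 95.6% without thinning.

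The same order held for Tap2 in both sorts, with log2 ratios of -0.22 (-0.29 to -0.15) in TCRβ and -0.30 (-0.44 to -0.16) in TCRγδ. H2-T22 was at -0.12 (-0.18 to -0.057) and -0.25 (-0.35 to -0.14). H2-T23 was at -0.061 (-0.18 to 0.060) in TCRβ, where its sign turned with TMM and DESeq2 scaling, and at -0.32 (-0.48 to -0.16) in TCRγδ. The members with small or uneven ratios were the light chain, the classical heavy chains, Tap1 and Tapbp. B2m was at -0.13 (-0.15 to -0.11) in TCRβ and -0.057 (-0.088 to -0.026) in TCRγδ, the latter positive when each cell weighed the same and in cells with 500 to 3500 genes. H2-K1 was at 0.058 (0.044 to 0.072) and -0.053 (-0.077 to -0.029), and the TCRγδ sign turned under 4 of 9 alternatives. H2-D1 was at 0.066 (0.016 to 0.12) and -0.095 (-0.18 to -0.014), the latter -0.042 (-0.12 to 0.040) without epithelial-rich cells. Tap1 was at -0.050 (-0.13 to 0.030), positive with TMM and DESeq2 scaling, and -0.16 (-0.31 to -0.015), positive in thinned cells. Tapbp was at -0.015 (-0.067 to 0.036), positive under 4 of 9 alternatives, and -0.10 (-0.19 to -0.0064).

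In count, 0 of 10 members differed at least 1.5-fold between genotypes in TCRβ, where 3.89% of 10763 genes did. In TCRγδ 0 of 10 did, against 8.02% of 9218 genes. All 10 members were lower in TCRγδ Tcf7KO, each with an interval below 0, and their median log2 ratio was -0.20 against -0.034 for all genes. In TCRβ 8 of 10 were lower, 4 with an interval below 0 and 2 with one above, and the median was -0.056 against -0.067 for all genes.

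The TCRγδ comparison moved with the epithelial-rich cells. Without them 9 of 10 members were lower, 5 with an interval below 0, and the median was -0.15 against -0.047 for all genes. The 5 were Nlrc5 at -0.40 (-0.58 to -0.21), H2-T23 at -0.29 (-0.45 to -0.12), H2-Q7 at -0.28 (-0.32 to -0.23), Tap2 at -0.25 (-0.39 to -0.11) and H2-T22 at -0.19 (-0.30 to -0.08). B2m stood at 2589.5 CPM in Tcf7KO and 2591 CPM in Tcf7WT in those cells, and H2-K1 at 4358 and 4350.2 CPM. So the 5 members stayed lower in the cells left, while the most abundant light and heavy chains were level in both libraries. In thinned cells the median was -0.092 and Nlrc5 was at -0.45.

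Most members were also lower in TCRγδ Tcf7KO on each side of the Gzma split, less clearly so on the negative side. In Gzma-positive cells, 1326 in Tcf7KO and 1159 in Tcf7WT, Nlrc5 stood at 62.1 against 86.8 CPM, H2-Q7 at 1106 against 1390.1 CPM, Tap2 at 121 against 148 CPM and H2-T23 at 85.9 against 109 CPM. The log2 ratios were -0.48 (-0.70 to -0.27), -0.33 (-0.38 to -0.28), -0.28 (-0.44 to -0.12) and -0.34 (-0.53 to -0.15) in the same order. In count 0 of 10 members were called in these cells, against 7.59% of 8509 genes. In Gzma-negative cells, 185 in Tcf7KO and 729 in Tcf7WT, 2 of 10 were called lower, where 5.56% of 5634 genes were: H2-Q7 at -0.63 (-0.75 to -0.52) and Nlrc5 at -0.76 (-1.27 to -0.27). Epithelial-rich cells held 18.5% of the UMIs of the Gzma-negative Tcf7KO cells and 1.68% of those of Tcf7WT. Without them 0 of 10 were called, with H2-Q7 at -0.37 (-0.48 to -0.26) and Nlrc5 at -0.49 (-0.996 to -0.0016). These 2 had the only intervals below 0 there, with 8 members lower and 2 higher. With the epithelial-rich cells kept, 10 were lower, 8 with an interval below 0. In Gzma-positive cells 9 were lower without epithelial-rich cells, 6 with an interval below 0.

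**Figure D3:**
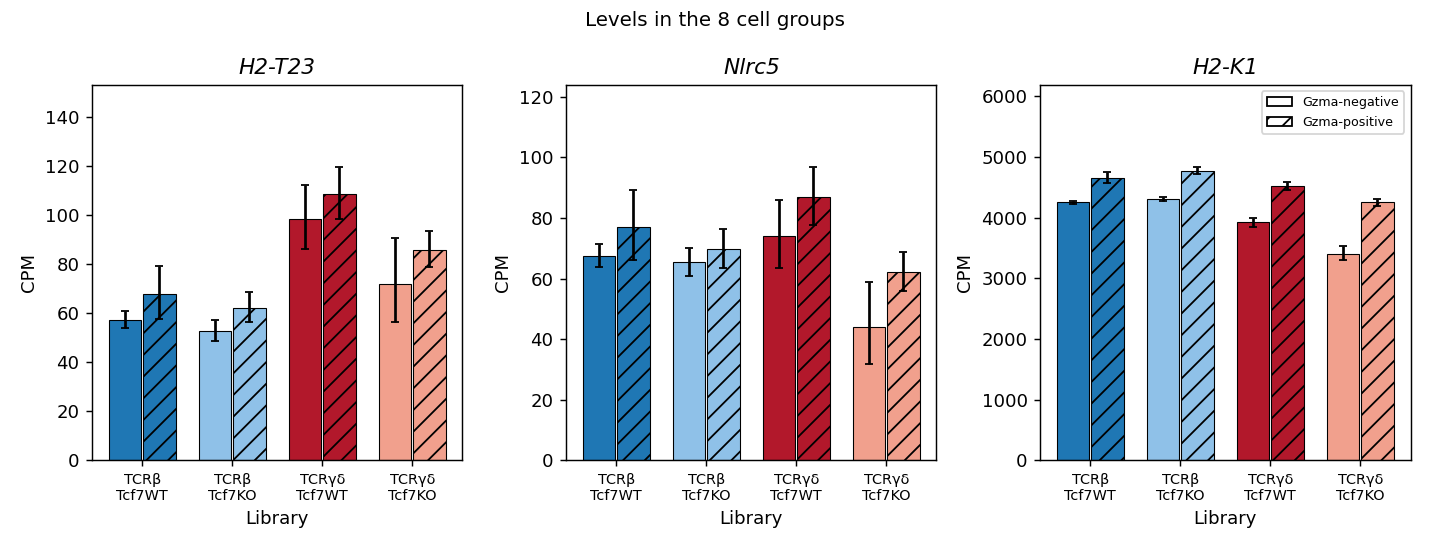
Level of H2-T23, Nlrc5 and H2-K1 in the 8 cell groups, in CPM from 0, with exact 95% counting intervals; hatched bars are Gzma-positive cells. H2-T23 is higher in both TCRγδ libraries on both sides of the Gzma split, Nlrc5 is lowest in TCRγδ Tcf7KO, and H2-K1 is higher in the Gzma-positive cells of all 4 libraries.

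A cell counted as Gzma-positive with at least 1 Gzma UMI. There were 756, 1883, 1159 and 1326 such cells, or 9.94%, 32.5%, 61.4% and 87.8% of each library, and 9.21%, 28.5%, 58.8% and 83.6% of thinned cells. Epithelial-rich cells should lack Gzma, yet 1 of 11, 1 of 3, 3 of 18 and 10 of 18 of them had a Gzma UMI, or 9.09%, 33.3%, 16.7% and 55.6%, at median depths of 11086, 38231, 2558.5 and 23409 UMIs. In TCRβ these shares were close to those of the whole libraries but rest on 1 positive cell in each. Epithelial-rich cells were also deeper there than the whole libraries, whose median depths were 2431 and 2860 UMIs. The shares therefore cannot tell whether unthinned shares of Gzma-positive cells in TCRβ exceed a background. Among thinned epithelial-rich cells the shares were 0 of 10, 0 of 3, 0 of 11 and 11.1% of 18. Cells with only 1 or 2 Gzma UMIs numbered 230, 647, 132 and 103.

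H2-K1 was higher in the Gzma-positive cells of every library. In Gzma-negative cells it stood at 4251 CPM (4221 to 4281), 4306 CPM (4268 to 4343), 3921 CPM (3842 to 4002) and 3408 CPM (3295 to 3524). In Gzma-positive cells it stood at 4660.3 CPM (4572 to 4749.9), 4776 CPM (4723 to 4829.6), 4516 CPM (4449 to 4584) and 4250.2 CPM (4199 to 4302). No pair of intervals overlapped within a library. The log2 ratios were 0.13 (0.10 to 0.16), 0.15 (0.13 to 0.17), 0.20 (0.17 to 0.24) and 0.32 (0.27 to 0.37). The last was 0.11 (0.06 to 0.16) without epithelial-rich cells, and the other 3 stayed at 0.14, 0.15 and 0.20. Myeloid markers (4 of 10 listed) stood at 79.6, 37.5, 82.7 and 42.05 CPM in Gzma-positive and 17.1, 17.1, 38.8 and 41.95 CPM in Gzma-negative cells. They were near level only in TCRγδ Tcf7KO. Without cells holding at least 2 B cell or myeloid marker UMIs the H2-K1 ratios were 0.13, 0.15, 0.20 and 0.33.

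H2-Q7 was also higher in Gzma-positive cells of 4 of 4 libraries, at 0.071 (0.020 to 0.12), 0.12 (0.081 to 0.16), 0.10 (0.033 to 0.16) and 0.40 (0.30 to 0.51), and the last was 0.17 (0.06 to 0.27) without epithelial-rich cells. Nlrc5, H2-T23 and H2-T22 were higher in 4 of 4 libraries too, but most of their intervals held 0. Nlrc5 was at 0.19 (-0.046 to 0.42), 0.092 (-0.078 to 0.26), 0.23 (-0.041 to 0.50) and 0.50 (0.046 to 0.98). For these 3 genes 1, 1 and 2 of the 4 intervals lay above 0. In TCRγδ Tcf7KO 7 of the 10 members had an interval above 0, Nlrc5 and H2-T22 among them. Without epithelial-rich cells 2 did there, H2-K1 and H2-Q7. In the third library H2-T22 and H2-T23 turned negative with thinned cells, and Nlrc5 did in TCRβ Tcf7KO with at least 3 Gzma UMIs.

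Tapbp was the exception among the members. It stood at 318, 314, 322 and 297 CPM in Gzma-negative cells and at 288, 306, 284 and 276 CPM in Gzma-positive cells. The positive cells were lower in 4 of 4 libraries, with log2 ratios of -0.14 (-0.26 to -0.026), -0.039 (-0.12 to 0.040), -0.18 (-0.32 to -0.047) and -0.10 (-0.28 to 0.078). The sign held under all 11 alternatives in each library, and without epithelial-rich cells the last was -0.25 (-0.44 to -0.06). Tap1 and Tap2 showed no common direction: Tap1 was higher in 3 of 4 libraries and Tap2 in 2 of 4, and 1 of these 8 intervals left out 0. It was that of Tap2 in TCRγδ Tcf7KO, which held 0 without epithelial-rich cells. B2m and H2-D1 were higher in 3 of 4, each with 3 intervals above 0, though in TCRγδ Tcf7KO both turned negative in cells of 500 to 3500 genes and B2m was at -0.0015 without epithelial-rich cells. They were near 0 in TCRγδ Tcf7WT at -0.0051 (-0.051 to 0.041) and -0.023 (-0.14 to 0.10).

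None of these Gzma differences reached 1.5-fold. In each library 0 of 10 members did, against 12.5% of 9870 genes, 5.46% of 9548, 5.49% of 7365 and 12.5% of 7705. The median log2 ratio of the members was 0.11, 0.11, 0.063 and 0.26, and that of all genes was -0.063, -0.033, -0.037 and -0.015. In TCRβ Tcf7WT, TCRβ Tcf7KO and TCRγδ Tcf7WT, epithelial markers took 0.0576%, 0.0547% and 0.129% of the UMIs of Gzma-negative cells. In Gzma-positive cells there they took 0.0793%, 0.0649% and 0.127%. In TCRγδ Tcf7KO they took 0.840% of the UMIs of the Gzma-negative and 0.209% of those of the Gzma-positive cells. Without epithelial-rich cells its median was 0.077, and with only cells of 500 to 3500 genes 0.016. The median in TCRγδ Tcf7WT was -0.022 in thinned cells.

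**Figure D4:**
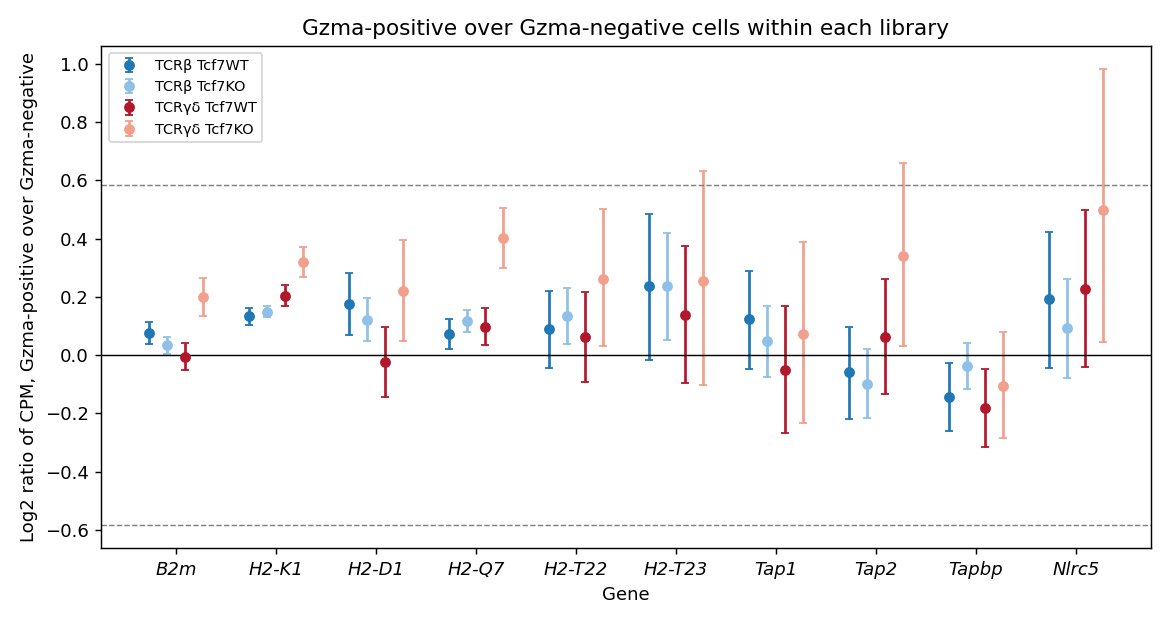
Log2 ratio of CPM in Gzma-positive over Gzma-negative cells of each library, per gene, with exact 95% counting intervals; dashed lines mark 1.5-fold. H2-K1 and H2-Q7 lie above 0 with all 4 intervals, Tapbp lies below 0 in all 4 libraries, and TCRγδ Tcf7KO, with 185 Gzma-negative cells, has the widest intervals and most of the highest ratios.

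Across the amount of Gzma, the summed level of the 10 members was highest in the cells with 10 or more Gzma UMIs. In cells with 0, 1 to 2, 3 to 9 and at least 10 Gzma UMIs it was 9454, 9478, 10355 and 10403 CPM in TCRβ Tcf7WT. In TCRβ Tcf7KO it was 9059, 9075, 9805 and 10084 CPM. In TCRγδ Tcf7WT it was 9153, 8449, 8939.7 and 10082 CPM. In TCRγδ Tcf7KO it was 7515, 6166, 8158 and 9461 CPM. The order was therefore not even in the TCRγδ libraries, where the cells with 1 or 2 UMIs had the lowest level. Thinned cells of TCRγδ Tcf7KO gave 8712, 8919.5, 9169 and 9646 CPM, and in thinned cells of TCRγδ Tcf7WT, at 9392, 9111, 8742 and 10047 CPM, the lowest was the class of 3 to 9 UMIs, with 56 cells. The middle classes were thin in places, with as few as 31 cells.

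The rest of the pathway is given here from lists chosen with earlier results of these data known. Of all genes, 1.65% were called higher and 2.24% lower between genotypes in TCRβ, and 4.6% and 3.42% in TCRγδ. Among 15 other class I and class I-like chains with at least 20 UMIs in the TCRβ genotype comparison, 0 were called higher and 2 lower, with a median of -0.086. In TCRγδ 12 such chains gave 2 higher and 2 lower and a median of -0.31. Without epithelial-rich cells 11 chains gave 0 higher and 2 lower and a median of -0.25. The 2 were H2-Q10 at -1.66 (-2.47 to -0.90), with 2.96 against 9.35 CPM, and H2-T24 at -1.10 (-1.58 to -0.63). In all cells H2-T24, a nonclassical heavy chain, stood at 8.21 against 18.2 CPM (-1.15, -1.63 to -0.68). H2-Q6, a close relative of H2-Q7, was at 29.4 against 42.9 CPM (-0.55, -0.82 to -0.28) in all cells and was not called. H2-Q members resemble each other and reads may be split between them. Between the sorts Cd1d1, which presents lipids, was lower in TCRγδ, at 21.0 against 37.9 CPM in Tcf7WT (-0.85, -1.13 to -0.58) and 17.5 against 28.6 CPM in Tcf7KO (-0.71, -0.999 to -0.42).

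The immunoproteasome cuts the peptides that TAP carries. Of its 7 listed genes 0 were called in either genotype comparison, with medians of -0.074 in TCRβ and 0.044 in TCRγδ. Psmb9, a catalytic subunit whose gene overlaps Tap1, was lower in Tcf7KO in both sorts, at 217 against 270.4 CPM in TCRβ (-0.32, -0.38 to -0.26) and 229 against 283 CPM in TCRγδ (-0.31, -0.40 to -0.21). Psmb8, another catalytic subunit, was at -0.13 (-0.16 to -0.094) and -0.19 (-0.25 to -0.13). Other genes of the list went the other way in TCRγδ. Without epithelial-rich cells Pomp was at 0.20 (0.10 to 0.30) and Psme1 at 0.16 (0.08 to 0.24), against -0.25 for Psmb9 and -0.13 for Psmb8. The list median was then 0.086. The 8 chaperones and folding enzymes of peptide loading had medians of -0.16 in TCRβ and -0.10 in TCRγδ, with 0 and 1 called. Calr, the chaperone calreticulin, was at -0.21 (-0.29 to -0.13) and -0.19 (-0.32 to -0.06).

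Of 26 regulators of class I genes, 1 was called higher and 0 lower in TCRβ, and 1 higher and 1 lower in TCRγδ. Irf1, an interferon-induced activator of class I genes, was at 163 against 230 CPM in TCRγδ Tcf7KO and Tcf7WT (-0.49, -0.61 to -0.38), and Creb1 at 80.7 against 109.8 CPM (-0.44, -0.61 to -0.28). Neither Irf1 nor Creb1 reached 1.5-fold, so neither is the regulator called lower. Ifngr2, a chain of the interferon-γ receptor, was the gene called higher in each sort, at 0.72 (0.49 to 0.96) and 0.89 (0.33 to 1.47). Without epithelial-rich cells the TCRγδ value was 0.032 (-0.72 to 0.79), at 5.03 against 4.92 CPM, and no regulator was called higher there. Other interferon targets had medians of 0.0042 in TCRβ and -0.31 in TCRγδ, and the latter was -0.24 without epithelial-rich cells. Genes of general function had medians of -0.040 and -0.050, though Actb, the cytoplasmic actin gene, was itself at -0.42 (-0.43 to -0.40) in TCRγδ.

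MHC class II genes, kept as a contrast to class I, differed far more between libraries than any member did. In TCRγδ 6 of 8 were called lower in Tcf7KO and the median was -1.94, or -1.87 without epithelial-rich cells. H2-Aa stood at 2.09 against 42.5 CPM and H2-Ab1, its partner chain, at 4.87 against 43.9 CPM. In TCRβ 4 of 7 were called lower, and Cd74, the invariant chain, stood at 1.14 against 8.08 CPM. The myeloid markers, of which 4 of 10 were listed, summed to 24.1, 24.3, 65.9 and 42.0 CPM. Itgax was the largest part in each library, at 12.9, 12.0, 52.5 and 25.1 CPM. Of 6 B cell markers only Cd79b reached 1 CPM, at 27.4 to 38.1 CPM. The part of myeloid and B cells in the class II levels was not tested.

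The members did not form one pattern over the 8 cell groups made by library and Gzma side. Against the mean of the members' log2 CPM, H2-T22 and Nlrc5 had correlations of 0.988 and 0.985, while H2-T23 had 0.320 and Tapbp 0.0188. This is a description over 8 groups that share libraries, and each member is part of the mean. The SD of log2 CPM over the groups was 0.0824 for Tapbp, 0.0965 for B2m, 0.290 for Nlrc5 and 0.373 for H2-T23, against a median of 0.165 for 1883 genes with at least 100 UMIs in every group. The genes outside the list most like that mean were Atp6v0e (0.956), Pcmtd1 (0.954), Apol7b (0.937), Fyn (0.932) and Nktr (0.932), among those 1883 genes. Each of these genes, and every member except H2-T23 and Tapbp, was lowest in the Gzma-negative cells of TCRγδ Tcf7KO. Epithelial-rich cells held 18.5% of the UMIs of that group. Correlations and SDs were not computed without them, so their part in these values was not tested.

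Within a library, thinned cells with an Nlrc5 UMI had a slightly higher sum of the other 9 members, most of it B2m, H2-K1 and H2-Q7, than cells without one. This split was chosen after the data were seen. There were 671, 552, 198 and 145 cells with an Nlrc5 UMI. The other 9 members summed to 10132 against 9480 CPM, 9827 against 9309.7 CPM, 10253 against 9516 CPM and 9691 against 9342 CPM. The log2 ratios were 0.096 (0.067 to 0.12), 0.078 (0.046 to 0.11), 0.11 (0.054 to 0.16) and 0.053 (-0.010 to 0.12), positive in 4 of 4 libraries. Single members did not all follow the sum: H2-D1 was at -0.21 (-0.39 to -0.029) in TCRβ Tcf7KO, and Tapbp at -0.13 (-0.30 to 0.042) in TCRβ Tcf7WT. B2m and H2-K1 were positive in 4 of 4, and H2-Q7 was positive except in TCRγδ Tcf7KO, at -0.038 (-0.22 to 0.14). No epithelial-rich cell held an Nlrc5 UMI, so those kept by thinning all fell on the side without one. The ratios of this split were not computed without them. An Nlrc5 UMI was found in 9.80%, 10.4%, 12.5% and 9.78% of thinned cells and in 15.9%, 18.3%, 22.3% and 23.5% without thinning, so cells without a UMI may still hold the transcript.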

How the data were processed

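Droplet 3′ libraries of 4 sorted cell samples, 1 per group, were deposited by the authors as unnormalised UMI counts per gene and cell, per the values in the files. Seurat 3.0.0 and the builds GRCm38 and mm10 stand in the submitters' processing notes, and the aligner is not given in the sources used here. No row held a mitochondrial or ribosomal protein gene symbol. Counts were summed over the cells of a library or of a Gzma side, scaled to CPM, and compared as log2 ratios with no pseudocount. Intervals are exact at 95% (conditional binomial for ratios, Poisson for levels) and cover counting error between these libraries only, with no replicate check and no p-value. A gene was called at 1.5-fold. The members needed 20 UMIs and the genes of the background 100 UMIs over both sides. Doublets were not called, and cells with more than 3500 genes were left out in an alternative.

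Thinning drew 1624 UMIs per cell, the 10th percentile of TCRβ Tcf7WT, and left out 759, 489, 300 and 28 shallower cells. Alternatives used edgeR 4.0.16 (TMM), DESeq2 1.42.0 (size factors), a total without granzyme, receptor and immunoglobulin genes, equal cell weights and subsets of cells. Python 3.11.15 with numpy 2.4.6 and scipy 1.17.1 ran the rest. The ratios and their intervals were tested on simulated Poisson counts, the model the intervals assume, with no variation between cells or libraries. That test checks the computation only. All members are named. From each list, the rule let the text name up to 4 genes per comparison, those with the largest absolute log2 ratio among genes with 50 UMIs or more, with the same gene's value in the paired comparison beside it. Outside that rule, H2-Q10, Pomp and Psme1 are given for TCRγδ without epithelial-rich cells only. The members and lists were chosen with earlier results of these data known. Genotype and sort comparisons share libraries. One list of T cell markers is not reported here.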

Additional observations from a re-analysis of the deposited data

Results flagged for a closer look

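For 3 members, all with 1 library per group, an effect had opposite signs in the paired contrasts, and the difference was not tested. The H2-K1 log2 ratio of Tcf7KO over Tcf7WT was 0.058 in TCRβ and -0.053 in TCRγδ, a difference of -0.11, and the TCRγδ value turned positive under 4 of 9 alternatives. The H2-D1 ratio was 0.066 in TCRβ and -0.095 in TCRγδ, a difference of -0.16, and the latter was -0.042 (-0.12 to 0.040) without epithelial-rich cells. The Nlrc5 ratio of TCRγδ over TCRβ was 0.26 in Tcf7WT and -0.17 in Tcf7KO, a difference of -0.43, and the latter was -0.086 (-0.25 to 0.074) without epithelial-rich cells.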

How the results depend on the processing

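No paired analysis was possible because each group is 1 library and the labels give no replicate numbers. The member count called between the sorts in Tcf7KO was 1 in place of 0 with TMM factors, DESeq2 size factors, the total without granzyme, receptor and immunoglobulin genes, equal cell weights, no epithelial-rich cells, and only cells with 500 to 3500 genes, in each case H2-T23. The members' median between the sorts in Tcf7WT was 0.092 with TMM, 0.086 with DESeq2 and 0.043 with the granzyme-free total, against 0.019. In Gzma-negative cells, the sort count in Tcf7KO, 2 as reported, was 0 with DESeq2, equal weights and thinned cells and 1 without epithelial-rich cells and with 500 to 3500 genes, where H2-Q7 and Tap2 were no longer called and the 1 was H2-T23, higher in TCRγδ. Its median, -0.27 as reported, was 0.068 with equal weights, 0.00093 in thinned cells, -0.014 without epithelial-rich cells and 0.042 with 500 to 3500 genes. The TCRγδ genotype count in Gzma-negative cells, 2 as reported, was 0 with equal weights, without epithelial-rich cells and with 500 to 3500 genes, and its median, -0.37, was -0.12, -0.14 and -0.072. In Gzma-positive cells the TCRγδ genotype median was -0.053 in thinned cells, against -0.19. The Gzma median in TCRγδ Tcf7KO was 0.016 with 500 to 3500 genes, and its count was 1 (Nlrc5, 0.59) when Gzma-positive meant at least 3 UMIs. The median of the TCRβ genotype comparison turned to 0.012 with TMM and 0.0092 with DESeq2. The cause of these changes was not tested. No scaling moved the median of all genes by over 0.1. Depth limits Nlrc5 and H2-T23 most, above all in the 185 Gzma-negative cells of TCRγδ Tcf7KO.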
